A study of Mus musculus with 16 samples.

Results

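Aminoacyl-tRNA synthetases are the enzymes that load each transfer RNA (tRNA) with its amino acid. Their mRNAs were followed in mouse embryonic stem (ES) cells before and during exit from naive pluripotency. Members were the genes whose symbol is a one-letter amino acid code followed by "ars", with or without a compartment suffix, together with Eprs, Farsa, Farsb and Pars2. This rule took 37 of the 27179 genes in the deposited count table. Lars2 was left out by the rule, because its counts ran from 8766 to 59159 per library and moved with those of the ribosomal RNA precursor Rn45s, at 29161 to 146553. The 16 members whose symbol ends in 2 encode mitochondrial enzymes. The other 21 were taken as cytosolic. Tarsl2 was placed with them although its symbol ends in 2, since it is a paralogue of Tars that acts in the cytosol.

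The series holds 16 RNA sequencing libraries of ES cells in 8 groups of 2. Cells had been adapted from serum/LIF to either of 2 maintenance media, both with leukaemia inhibitory factor (LIF), 2 mM glutamine, 3 µM of the GSK3 inhibitor CHIR99021 and 1 µM of the MEK inhibitor PD0325901, which together are called 2i. One of them, 2i/LIF, had no serum and held N-2 and B-27 supplements; the other, serum/LIF+2i, contained 10% fetal bovine serum. The 0 h groups were collected in these media, and the 12, 24 and 40 h groups after exit into serum-free N-2 and B-27 medium without 2i or LIF. The exit media were not the same: the base for serum/LIF+2i cells was made with glutamine-free DMEM and 2 mM added glutamine, and 2i/LIF cells kept the base of their maintenance medium. The labels name neither the ES cell line nor separate cultures, so the p-values below measure the spread between these libraries, which may be technical.

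Each synthetase recognises a single amino acid, apart from Eprs, which carries the glutamate and proline enzymes in one chain. Cells need a set for protein synthesis in the cytosol and another for the mitochondrial ribosome, and most amino acids have a separate nuclear gene for each. Gars and Kars serve both compartments, and mitochondria make glutaminyl-tRNA by another route, so Qars has no mitochondrial partner. In mammals, several cytosolic synthetases sit in a multisynthetase complex on the scaffold proteins Aimp1, Aimp2 and Eef1e1. Many cytosolic synthetase genes are known targets of ATF4, the transcription factor of the amino acid response, which is switched on when amino acids are short and acts with C/EBP partners on a shared DNA element.

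The promoters were therefore searched for the core of that element, TGATGNAA, on both strands. RefSeq windows of GRCm38.p6, from 250 bases before to 50 after a transcript start, were matched for 27 members. The core was found in 5 of them, namely Aars, Gars, Iars, Tars and Yars. All windows in the table held it in 3.97% of cases, or 4.51% of genes. The stretches around the matches are printed because these 5 genes are cytosolic and belong to a list of 12 synthetases known to respond to amino acid shortage, of which 8 had a window. None of the 13 mitochondrial members with a window had a match, which cannot set them apart from the 4.51% of all genes. Stretches are given 5′ to 3′ on the strand of the gene, with the match in capitals:
Aars, chr8:111033704-111033763, plus strand: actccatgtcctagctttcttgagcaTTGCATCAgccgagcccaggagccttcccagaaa
Gars, chr6:55037941-55038000, plus strand: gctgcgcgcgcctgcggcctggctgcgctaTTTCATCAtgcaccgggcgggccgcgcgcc
Tars, chr15:11399659-11399718, minus strand: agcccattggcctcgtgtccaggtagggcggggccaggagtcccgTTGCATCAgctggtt
Iars, chr13:49682126-49682155, plus strand: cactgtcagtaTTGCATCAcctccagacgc
Yars, chr4:129189895-129189924, plus strand: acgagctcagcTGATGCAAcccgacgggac
The matches began 112 bases upstream of the window's transcript start in Aars, 30 upstream in Gars and 15 upstream in Tars. In Iars and Yars they began 7 and 3 bases downstream of it. For Aars and Yars that start lies inside the annotated gene span, which begins at chr8:111027778 and chr4:129189734. Aars held another match, 9 bases downstream of the same transcript start. A match describes the letters in the window and is no measure of binding.

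Total counts per library ran from 5931381 to 11142744, with the deepest libraries among the 24 and 40 h groups from serum/LIF+2i. Levels are given as CPM, counts scaled to a common library size with the trimmed mean of M values (TMM). All 37 members passed the filter on low counts, as did 14288 of all genes. Tests were edgeR's quasi-likelihood F tests, two-sided, in one fit of all libraries, with calls made where the Benjamini-Hochberg p over the 14288 genes (the adjusted p) was under 0.05. The labelled cell type was checked against its markers: Pou5f1, Sox2, Nanog, Zfp42, Esrrb and Sall4, all detected in every group, summed to 3193 to 3294 CPM in 2i/LIF at 0 h, and 1112 to 1135 CPM at 40 h. Primitive endoderm markers summed to at most 7.4 CPM and fibroblast markers to at most 22.3 CPM, with Postn at 0 in all libraries. Trophoblast markers fell from 71 to 83 CPM at 0 h, mostly Tfap2c, to 6 to 9 CPM at 40 h, where Elf5 was at 0. Their part in the results below was not tested. Fewer cells of a type and less RNA per cell cannot be told apart in such bulk samples.

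The compartments were separated by level in nearly every case. Per kilobase of gene length, which allows genes to be compared, the 20 cytosolic members other than Tarsl2 had a mean over the 16 libraries above that of every mitochondrial member. Nars, the asparagine enzyme, ranked first and the tryptophan enzyme Wars last of these 20. Yars2, the tyrosine enzyme, ranked first among the mitochondrial members and Wars2 last of all 37. In 2i/LIF at 0 h the cytosolic members summed to 2183 ± 4.13 CPM per kilobase (SD, n = 2) and the mitochondrial members to 251 ± 2.84. Neighbours in this order often shared part of their range, as the plot of levels by library shows.

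**Figure D1:**
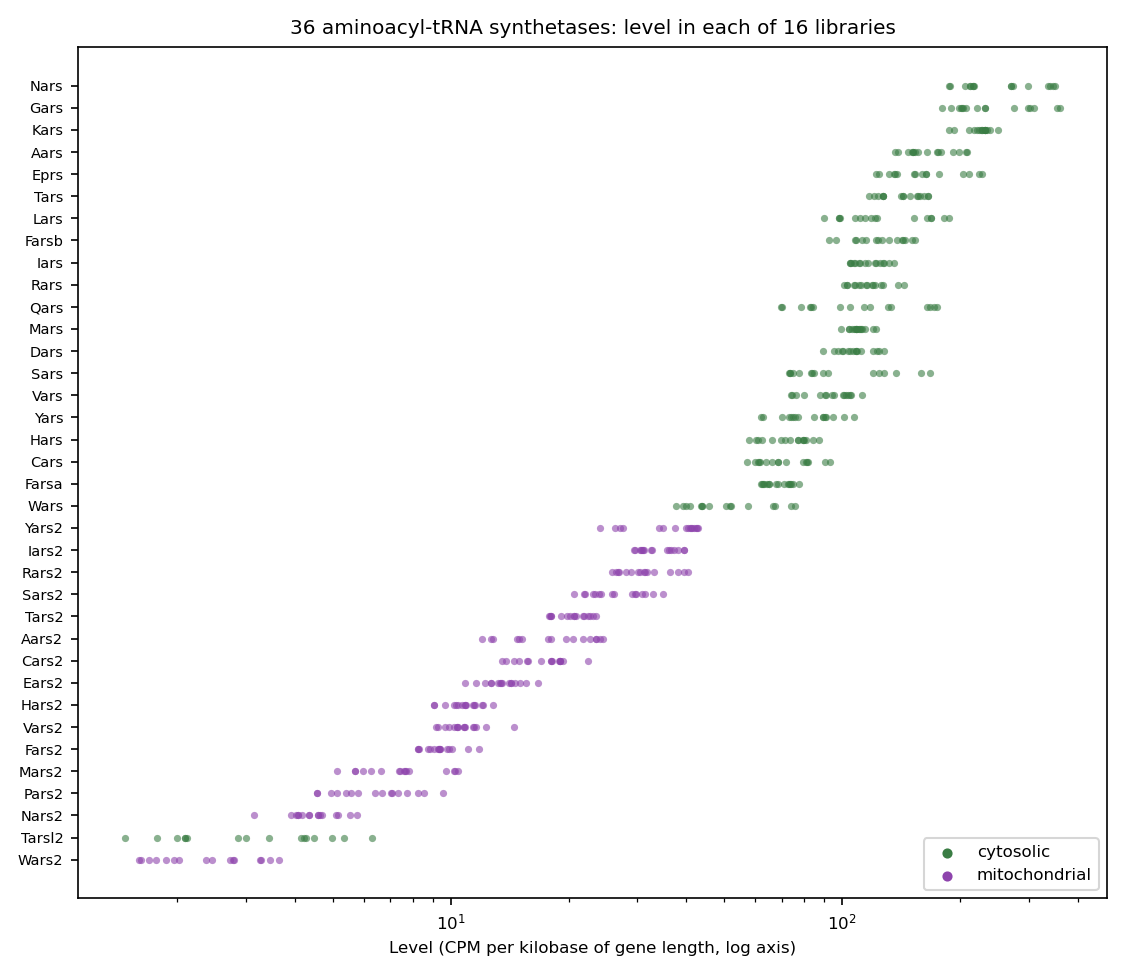
Level of 36 synthetases in CPM per kilobase of gene length (log axis). Each point is 1 of the 16 libraries, and genes are ordered by their mean. By their means, cytosolic members (green) lie to the right of mitochondrial ones (purple), apart from Tarsl2. Single points of Wars overlap those of Yars2, Rars2 and Iars2.

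At 40 h after exit, most cytosolic synthetase mRNAs were higher than at 0 h in cells from both media. Calls of mitochondrial ones went both ways and, from 2i/LIF, were no more frequent than among all genes. Most mitochondrial members had lower counts than the cytosolic ones, which limits their calls. From 2i/LIF, 18 of 21 cytosolic members rose and 2 fell, while 4 of 16 mitochondrial members rose and 3 fell, where 34.1% of all genes tested rose and 34.7% fell. From serum/LIF+2i, 17 cytosolic members rose and 2 fell, and 4 mitochondrial members rose and 8 fell, against 35.3% of all genes in each direction. The median log2 fold change was 0.39 for cytosolic and -0.08 for mitochondrial members from 2i/LIF, and 0.45 and -0.21 from serum/LIF+2i, with the median of all genes at 0.01 and 0.00. The mitochondrial median lay 0.47 below the cytosolic one from 2i/LIF (spread 0.05, the SD over choices of 1 library per group) and 0.66 below it from serum/LIF+2i (spread 0.10). With library sizes left unscaled, the mitochondrial members from serum/LIF+2i split 6 higher and 5 lower.

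The same direction was called from both media for 17 risen and 2 fallen cytosolic members, and for 3 risen and 3 fallen mitochondrial members, where 27% of all genes tested rose and 27.5% fell from both. Rars rose from 2i/LIF, by a log2 fold change of 0.17, and was not called from serum/LIF+2i, at -0.06; its call from 2i/LIF was lost without replicate 2 of the 40 h group (adjusted p = 0.0518). Mars, the methionine enzyme, passed in neither medium, at 0.05 and 0.03, and its span overlaps that of Ddit3, a stress gene that rose in both. Among mitochondrial members, 5 were called lower from serum/LIF+2i alone: Cars2, Fars2, Hars2, Iars2 and Vars2. The difference between media was itself called for Vars2 and for Iars2, the latter a call lost by DESeq2 (adjusted p = 0.145) and without any of 5 single libraries: replicate 2 of each 0 h group, both 40 h replicates from 2i/LIF, and replicate 2 at 40 h from serum/LIF+2i (0.0507 to 0.159). Cars2, Fars2 and Hars2 were no longer called by DESeq2, at adjusted p of 0.0652, 0.121 and 0.106. With library sizes unscaled they were not called by edgeR either (0.0526, 0.0867 and 0.0941). Each was also lost when some single libraries were left out. Nars2, the mitochondrial asparagine enzyme, was called higher from serum/LIF+2i alone. That call was lost by DESeq2 (adjusted p = 0.0892), and without either 0 h library or replicate 2 at 40 h of that medium.

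**Figure D2:**
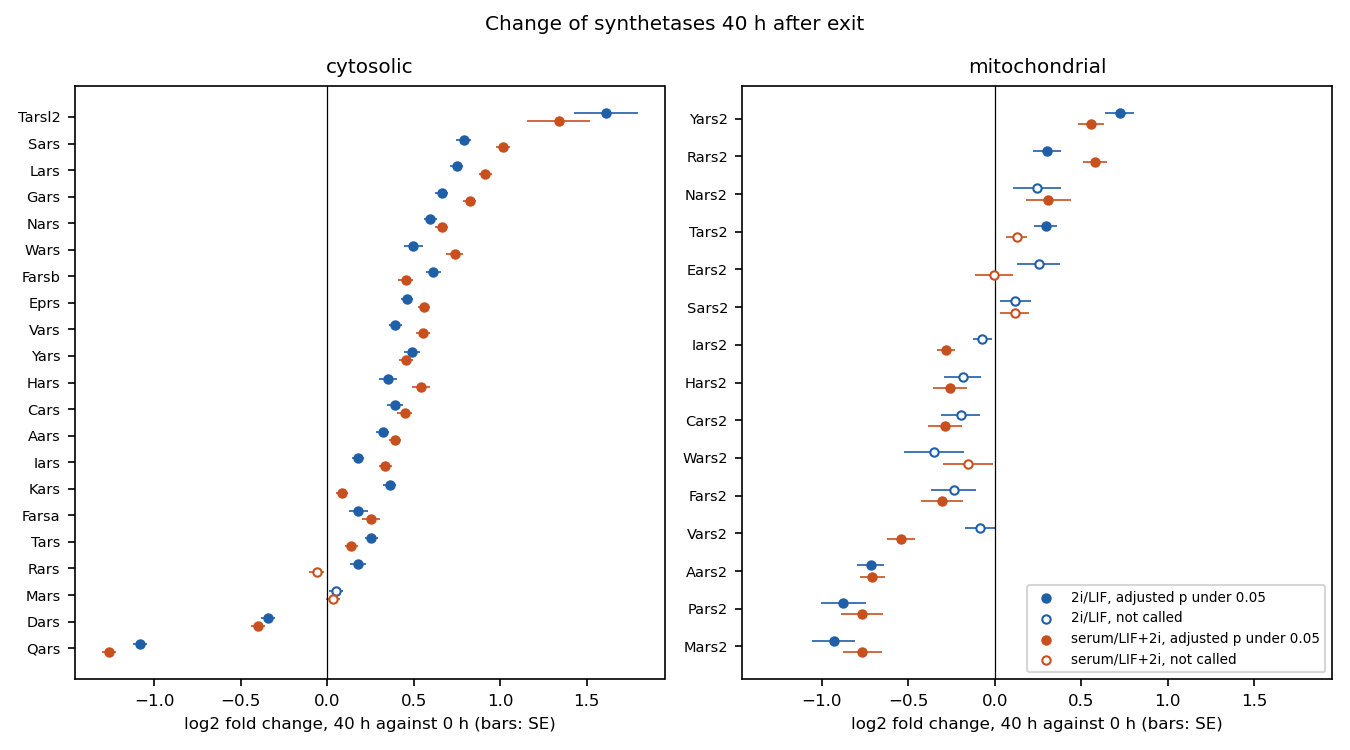
Log2 fold change at 40 h against 0 h (x axis) for 21 cytosolic (left) and 15 mitochondrial (right) synthetases, in cells from 2i/LIF (blue) and serum/LIF+2i (orange). Points are fitted values with SE bars, filled where the adjusted p was under 0.05. Cytosolic points lie mostly right of 0, with Qars and Dars to the left.

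Qars, the cytosolic glutamine enzyme, ran against most of its compartment and had the largest fall of all members. Qars read 476 and 456 CPM before exit, 357 and 362 after 12 h, 269 and 286 after 24 h and 213 and 226 after 40 h in cells from 2i/LIF. The Qars values from serum/LIF+2i were 447 and 467 CPM before exit, 309 and 320.2 after 12 h, 229.8 and 225 after 24 h and 189.7 and 191 after 40 h. The libraries of successive times did not overlap in either medium. At 40 h its log2 fold change was -1.08 ± 0.04 (SE) from 2i/LIF (adjusted p = 2.49e-49) and -1.26 ± 0.04 (SE) from serum/LIF+2i (adjusted p = 3.74e-57), a level 2.12-fold and 2.40-fold lower.

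Dars, the cytosolic aspartate enzyme, was the other member of its compartment to fall. Dars read 320.2 and 307 CPM before exit, 271 and 279.95 after 12 h, 268 and 263 after 24 h and 250.4 and 244 after 40 h in cells from 2i/LIF. The Dars values from serum/LIF+2i were 312 and 301 CPM before exit, 274 and 273 after 12 h, 259 and 252 after 24 h and 225 and 239.5 after 40 h. All 40 h libraries lay below all 0 h libraries. Its log2 fold change was -0.34 ± 0.04 (SE) from 2i/LIF (adjusted p = 1.82e-12) and -0.40 ± 0.04 (SE) from serum/LIF+2i (adjusted p = 2.05e-16).

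Sars, Lars and Gars, the serine, leucine and glycine enzymes, had the largest rises among the abundant cytosolic members. Sars read 278 and 272 CPM before exit, 273 and 271 after 12 h, 314 and 309 after 24 h and 443 and 507 after 40 h in cells from 2i/LIF. The Sars values from serum/LIF+2i were 288 and 309 CPM before exit, 340.2 and 331 after 12 h, 459 and 475 after 24 h and 621 and 587 after 40 h. Sars was not called at 12 h in cells from 2i/LIF and was highest at 40 h in both media. Lars read 343 and 375 CPM before exit, 423 and 411 after 12 h, 463 and 466 after 24 h and 582 and 626 after 40 h in cells from 2i/LIF. The Lars values from serum/LIF+2i were 373 and 373 CPM before exit, 435 and 450.2 after 12 h, 641 and 639.8 after 24 h and 692 and 712 after 40 h. The Lars libraries at 24 h already stood far apart between media. Gars read 429 and 452 CPM before exit, 475 and 487 after 12 h, 496 and 527 after 24 h and 658 and 736 after 40 h in cells from 2i/LIF. The Gars values from serum/LIF+2i were 481 and 482 CPM before exit, 555 and 554 after 12 h, 719.7 and 712 after 24 h and 861 and 845 after 40 h. For Gars, as for the other two, 0 h and 40 h libraries did not overlap. The log2 fold change of Sars was 0.79 ± 0.04 (SE) from 2i/LIF (adjusted p = 2.29e-29) and 1.02 ± 0.04 (SE) from serum/LIF+2i (adjusted p = 4.13e-38). For Lars it was 0.75 ± 0.04 (SE) from 2i/LIF (adjusted p = 8.03e-37) and 0.91 ± 0.04 (SE) from serum/LIF+2i (adjusted p = 7.96e-46). For Gars it was 0.66 ± 0.04 (SE) from 2i/LIF (adjusted p = 3.73e-31) and 0.82 ± 0.04 (SE) from serum/LIF+2i (adjusted p = 5.95e-40).

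Tarsl2, the threonine paralogue, rose most on the log scale, from a level near the bottom of the family. Tarsl2 read 5.69 and 6.38 CPM before exit, 6.72 and 6.68 after 12 h, 10.97 and 14.3 after 24 h and 17.03 and 20.1 after 40 h in cells from 2i/LIF. The Tarsl2 values from serum/LIF+2i were 6.76 and 4.70 CPM before exit, 9.60 and 9.15 after 12 h, 13.5 and 13.7 after 24 h and 13.3 and 15.9 after 40 h. Its 40 h libraries were all above its 0 h libraries. The log2 fold change was 1.61 ± 0.18 (SE) from 2i/LIF (adjusted p = 1.05e-13) and 1.34 ± 0.18 (SE) from serum/LIF+2i (adjusted p = 9.36e-11). Tars, the main threonine enzyme, rose less, by 0.26 and 0.14, and the mitochondrial Tars2 was called from 2i/LIF at 0.29 but not from serum/LIF+2i at 0.13.

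Mars2, Pars2 and Aars2, the mitochondrial methionine, proline and alanine enzymes, had the largest falls among mitochondrial members. Mars2 read 29.6 and 30.1 CPM before exit, 22.2 and 21.9 after 12 h, 21.4 and 21.3 after 24 h and 16.4 and 14.8 after 40 h in cells from 2i/LIF. The Mars2 values from serum/LIF+2i were 28.1 and 29.4 CPM before exit, 22.03 and 22.6 after 12 h, 19.1 and 18.04 after 24 h and 17.2 and 16.5 after 40 h. Every library after 0 h was below every 0 h library of its medium. Pars2 read 29.5 and 25.4 CPM before exit, 20.6 and 21.8 after 12 h, 17.1 and 19.8 after 24 h and 14.03 and 15.8 after 40 h in cells from 2i/LIF. The Pars2 values from serum/LIF+2i were 23.8 and 26.3 CPM before exit, 22.6 and 21.7 after 12 h, 16.6 and 17.8 after 24 h and 15.3 and 14.03 after 40 h. Pars2 followed the same downward course. Aars2 read 73.1 and 78.8 CPM before exit, 81.8 and 80.5 after 12 h, 60.5 and 59.3 after 24 h and 49.3 and 42.9 after 40 h in cells from 2i/LIF. The Aars2 values from serum/LIF+2i were 68.9 and 66.1 CPM before exit, 78.7 and 76.1 after 12 h, 50.1 and 50.9 after 24 h and 40.2 and 42.6 after 40 h. Aars2 differed in time, since its 12 h libraries were above its 0 h libraries, a rise that was called from serum/LIF+2i but not from 2i/LIF, and the fall came after 12 h. The log2 fold change at 40 h of Mars2 was -0.93 ± 0.12 (SE) from 2i/LIF (adjusted p = 5.14e-11) and -0.77 ± 0.11 (SE) from serum/LIF+2i (adjusted p = 1.39e-09). For Pars2 it was -0.88 ± 0.13 (SE) from 2i/LIF (adjusted p = 2.72e-09) and -0.77 ± 0.12 (SE) from serum/LIF+2i (adjusted p = 1.49e-08). For Aars2 it was -0.72 ± 0.08 (SE) from 2i/LIF (adjusted p = 8.05e-15) and -0.71 ± 0.07 (SE) from serum/LIF+2i (adjusted p = 2.1e-15).

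Their cytosolic partners did not fall. Aars read 666 and 680.5 CPM before exit, 751 and 765 after 12 h, 742 and 743 after 24 h and 807 and 875 after 40 h in cells from 2i/LIF. The Aars values from serum/LIF+2i were 719.6 and 737 CPM before exit, 858 and 851 after 12 h, 1010.3 and 1016 after 24 h and 974 and 941 after 40 h. Aars, the cytosolic alanine enzyme, was higher in all later libraries than at 0 h. Mars read 321 and 309 CPM before exit, 315 and 328 after 12 h, 328 and 324 after 24 h and 332 and 318 after 40 h in cells from 2i/LIF. The Mars values from serum/LIF+2i were 295 and 320.3 CPM before exit, 355 and 362 after 12 h, 330.5 and 338 after 24 h and 321 and 308 after 40 h. The Mars libraries at 0 and 40 h overlapped in both media.

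**Figure D3:**
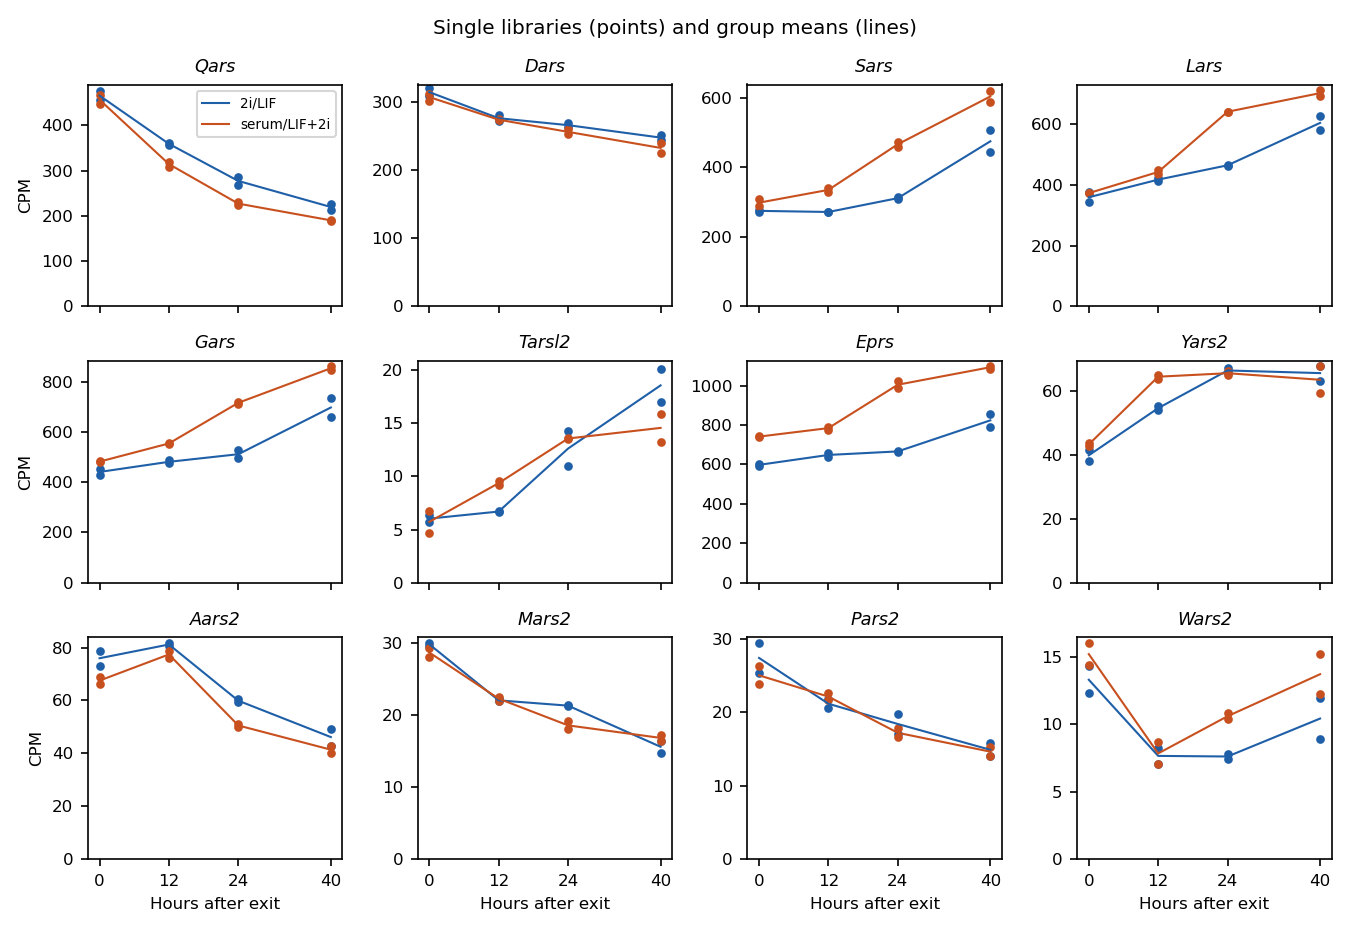
CPM (y axis, from 0) against hours after exit (x axis) for 12 synthetases. Points are single libraries and lines join group means, in cells from 2i/LIF (blue) and serum/LIF+2i (orange). Qars, Dars, Aars2, Mars2 and Pars2 end lower than they began, and Sars, Lars, Gars, Tarsl2, Eprs and Yars2 higher.

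Cytosolic and mitochondrial genes for the same amino acid can be set side by side in 17 pairs, in which Eprs stands with both Ears2 and Pars2, and Fars2 with both Farsa and Farsb. The mitochondrial gene had the lower log2 fold change at 40 h in 13 pairs from 2i/LIF and 14 from serum/LIF+2i. The 2 genes were called in opposite directions in 3 pairs from 2i/LIF and 9 from serum/LIF+2i. The 9 count Fars2 both with Farsa and with Farsb. They were 5 by DESeq2 and 6 with unscaled library sizes. With 1 serum/LIF+2i library left out, they were 7 without either 0 h replicate. They were 6 without replicate 1 at 40 h and 10 without replicate 2 at 40 h. Such pairs also arise among unrelated genes, since 34.1% of all genes rose and 34.7% fell from 2i/LIF, and 35.3% each way from serum/LIF+2i. The share of opposite calls over all pairs of genes was not computed. Among the opposite pairs from 2i/LIF were Aars with Aars2 and Eprs with Pars2, where the cytosolic gene rose and the mitochondrial gene fell. The widest gap was between Eprs and Pars2, at -1.34 from 2i/LIF and -1.33 from serum/LIF+2i. For arginine and tyrosine the mitochondrial gene had the higher value in both media. Yars2 rose by 0.72 and 0.56 against 0.49 and 0.45 for Yars. Yars2 read 41.7 and 38.1 CPM before exit, 55.4 and 54.01 after 12 h, 67.3 and 65.6 after 24 h and 68.01 and 63.3 after 40 h in cells from 2i/LIF. The Yars2 values from serum/LIF+2i were 42.9 and 43.8 CPM before exit, 63.9 and 65.1 after 12 h, 66.3 and 65.01 after 24 h and 67.7 and 59.4 after 40 h. The Yars2 rise was thus present by 12 h in every library. Ears2 read 21.4 and 20.1 CPM before exit, 26.04 and 27.8 after 12 h, 22.6 and 26.9 after 24 h and 24.9 and 24.3 after 40 h in cells from 2i/LIF. The Ears2 values from serum/LIF+2i were 23.4 and 24.8 CPM before exit, 28.8 and 26.4 after 12 h, 30.9 and 26.3 after 24 h and 23.4 and 24.7 after 40 h. Ears2, the mitochondrial glutamate enzyme, was not called at 40 h in either medium.

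The 8 enzymes of the multisynthetase complex (Eprs, Iars, Lars, Mars, Qars, Rars, Kars and Dars) did not move as one. From 2i/LIF 5 rose and 2 fell, and from serum/LIF+2i 4 rose and 2 fell, with medians of 0.18 and 0.06, beside the 34.1% and 34.7% of all genes that rose and fell from 2i/LIF and 35.3% each way from serum/LIF+2i. The 13 cytosolic members outside the complex all rose in both media, with medians of 0.49 and 0.54. Both fallen cytosolic genes, Qars and Dars, are therefore members of the complex. The scaffold genes changed little: Eef1e1 rose by 0.21 and 0.23, and Aimp1 and Aimp2 were not called, at 0.03 and 0.13 from 2i/LIF and -0.15 and -0.01 from serum/LIF+2i. The 2 subunits of the cytosolic phenylalanine enzyme rose unequally. Farsb rose by 0.61 and 0.45, and Farsa by 0.18 and 0.25. Per length, the Farsb to Farsa ratio was 1.464 to 1.498 in the 2i/LIF libraries at 0 h and 1.89 to 2.12 at 40 h. From serum/LIF+2i it was 1.66 to 1.74 at 0 h and 1.91 to 1.99 at 40 h.

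**Figure D4:**
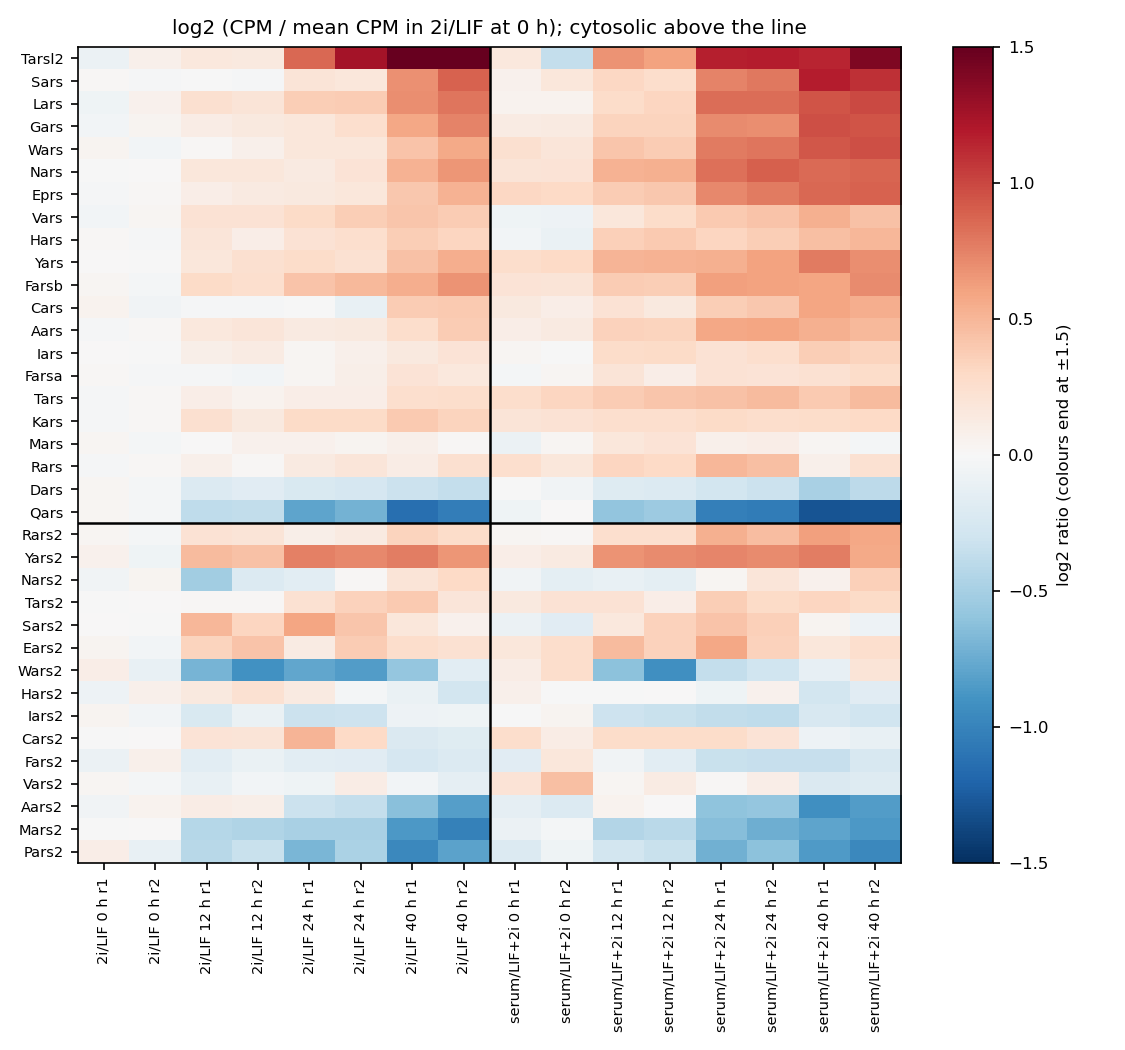
Log2 of the CPM in each library over the mean CPM in 2i/LIF at 0 h, with red higher and blue lower. Rows are 36 synthetases, cytosolic above the line, and columns the 16 libraries (r1 and r2 are replicates). Most cytosolic rows turn red with time, Qars and Dars turn blue, and the mitochondrial rows are mixed.

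In time, the cytosolic change began within 12 h in both media, and its later steps differed between them. The median cytosolic log2 fold change from 2i/LIF was 0.12 from 0 to 12 h, 0.08 from 12 to 24 h and 0.16 from 24 to 40 h. For serum/LIF+2i the same steps had medians of 0.19, 0.18 and 0.08. From 2i/LIF, 11 cytosolic members were higher and 2 lower at 12 h, with 4 and 4 mitochondrial members, where 21% of all genes rose and 23.7% fell. At 24 h the cytosolic counts were 15 and 2 and the mitochondrial 5 and 5, beside 29.2% and 29.6% of all genes. From serum/LIF+2i the counts at 12 h were 16 and 2 cytosolic and 4 and 4 mitochondrial, beside 25.3% and 25.9%. At 24 h they were 18 and 2 cytosolic and 6 and 7 mitochondrial, beside 32.4% and 32%. The summed cytosolic level in cells from 2i/LIF went from 2183 CPM per kilobase at 0 h over 2306 and 2367 to 2740 ± 98.3 (SD, n = 2) at 40 h. From serum/LIF+2i it went from 2376 over 2606 and 2950 to 3070 ± 13.5. The mitochondrial sum stayed between 251 and 276 in all groups, so that it fell from 11.5% of the cytosolic sum to 9.68% from 2i/LIF and from 10.9% to 8.53% from serum/LIF+2i.

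Changes between successive times were also counted. From 12 to 24 h, 12 cytosolic members rose and 3 fell in cells from serum/LIF+2i, with 4 and 3 mitochondrial, beside 24.2% of all genes each way; with library sizes unscaled the cytosolic split was 13 and 1. The 6 falls of that step were 2 by DESeq2 or without replicate 1 at 12 h, and 3 with unscaled sizes or without replicate 2 at 12 h or replicate 1 at 24 h. From 2i/LIF the same step had 7 higher and 1 lower cytosolic and 3 and 2 mitochondrial members, beside 17.4% and 17.7%. From 24 to 40 h, 14 cytosolic members rose and 2 fell from 2i/LIF, with 5 and 5 mitochondrial, beside 22.2% and 24.5%. The 19 rises of that step were 12 without replicate 1 of its 24 h group. From serum/LIF+2i that step had 9 higher and 5 lower cytosolic and 2 and 6 mitochondrial members, beside 25.9% and 24.6%. Other scalings gave 10 and 3 cytosolic members there, and unscaled library sizes 4 and 4 mitochondrial ones. DESeq2 and unscaled library sizes each called 7 falls there, against 11. The total of 22 calls in that step was 14, with 6 rises instead of 11, without replicate 1 of the 24 h group from serum/LIF+2i, the library with the largest share of ribosomal RNA counts, at 2.43%.

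Some mitochondrial members were called at 12 or 24 h and not at 40 h. Wars2 read 14.3 and 12.3 CPM before exit, 8.22 and 7.09 after 12 h, 7.77 and 7.45 after 24 h and 8.89 and 11.96 after 40 h in cells from 2i/LIF. The Wars2 values from serum/LIF+2i were 14.4 and 16.01 CPM before exit, 8.65 and 7.03 after 12 h, 10.4 and 10.8 after 24 h and 12.2 and 15.2 after 40 h. Wars2, the tryptophan enzyme, was thus lowest at 12 or 24 h, with log2 fold changes at 12 h of -0.79 ± 0.19 (SE) (adjusted p = 0.000202) and -0.97 ± 0.17 (SE) (adjusted p = 6.6e-07), and it was not called at 40 h, although both 40 h libraries from 2i/LIF were still below both 0 h libraries. Sars2 read 44.6 and 44.1 CPM before exit, 62.6 and 55.3 after 12 h, 66.6 and 58.96 after 24 h and 49.8 and 46.3 after 40 h in cells from 2i/LIF. The Sars2 values from serum/LIF+2i were 41.7 and 39.5 CPM before exit, 49.3 and 56.5 after 12 h, 59.7 and 56.7 after 24 h and 45.7 and 42.1 after 40 h. Sars2, the serine enzyme, was highest at 24 h in the mean, at 0.51 ± 0.09 (SE) (adjusted p = 2.44e-07) and 0.52 ± 0.08 (SE) (adjusted p = 3.68e-08), and was not called at 40 h. Cars2, the cysteine enzyme, rose by 0.41 at 24 h from 2i/LIF and fell by 0.61 between 24 and 40 h.

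Before exit, the media already differed. At 0 h, 12 cytosolic and 2 mitochondrial members were higher in serum/LIF+2i and 0 were lower by edgeR, where 14.6% of all genes were higher and 18.4% lower. At an unadjusted p under 0.05, 1 member was lower, the mitochondrial Aars2, which was also called lower, beside 10 members higher, without replicate 1 of the 2i/LIF group. DESeq2 called 10 of the 14 as higher and 0 as lower, and did not call Cars, Gars, Sars or Tars2 (adjusted p = 0.0556 to 0.161). The calls of Sars and Tars2 were also lost without either 2i/LIF library or without replicate 2 of the serum/LIF+2i group. Among called members, the largest differences were in Vars2, Eprs, Tars and Yars. Eprs read 592 and 603 CPM before exit, 640.00 and 657 after 12 h, 662 and 671 after 24 h and 792 and 856 after 40 h in cells from 2i/LIF. The Eprs values from serum/LIF+2i were 744 and 738 CPM before exit, 777 and 792 after 12 h, 986 and 1023 after 24 h and 1086 and 1100.2 after 40 h. Eprs at 0 h differed by 0.31 ± 0.04 (SE) (adjusted p = 1.81e-12), with no overlap between libraries. Tars read 309 and 318 CPM before exit, 335 and 324 after 12 h, 336 and 335 after 24 h and 372 and 376 after 40 h in cells from 2i/LIF. The Tars values from serum/LIF+2i were 377 and 393 CPM before exit, 408 and 417 after 12 h, 426 and 436 after 24 h and 413 and 436 after 40 h. Yars read 181 and 178 CPM before exit, 202 and 212 after 12 h, 218 and 209.7 after 24 h and 243 and 262 after 40 h in cells from 2i/LIF. The Yars values from serum/LIF+2i were 215 and 221 CPM before exit, 257 and 257 after 12 h, 259.9 and 272 after 24 h and 307 and 290.4 after 40 h. Tars and Yars were higher in both serum/LIF+2i libraries at 0 h, by 0.30 ± 0.04 (SE) (adjusted p = 5.22e-10) and 0.28 ± 0.05 (SE) (adjusted p = 4.07e-07). Vars2 read 47.9 and 46.3 CPM before exit, 43.7 and 45.9 after 12 h, 45.1 and 50.9 after 24 h and 45.8 and 42.8 after 40 h in cells from 2i/LIF. The Vars2 values from serum/LIF+2i were 54.5 and 64.3 CPM before exit, 48.3 and 51.3 after 12 h, 47.8 and 50.3 after 24 h and 40.5 and 41.1 after 40 h. Vars2, the mitochondrial valine enzyme, was higher by 0.34 ± 0.09 (SE) (adjusted p = 0.00108), a call lost without replicate 2 of the serum/LIF+2i group (0.20, adjusted p = 0.145).

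The median cytosolic difference between media was highest at 24 h. At 12 h, 15 cytosolic members were higher from serum/LIF+2i and 1 lower, with 1 and 1 mitochondrial, beside 14.8% and 15.5% of all genes. At 24 h the counts were 14 and 1 cytosolic and 2 and 1 mitochondrial, beside 14.1% and 17%. At 40 h they were 12 and 2 cytosolic and 2 and 1 mitochondrial, beside 13.9% and 13.4%. The 2 members lower at 12 h were 1 by DESeq2 or without replicate 2 from 2i/LIF or either replicate from serum/LIF+2i, and the 2 lower at 24 h were 1 by DESeq2 or without replicate 1 from 2i/LIF. The median cytosolic difference was 0.12 before exit and 0.20, 0.31 and 0.17 at the 3 later times, and the mitochondrial median stayed within -0.04 and 0.04. Before exit, the 12 members of the amino acid response list had a median of 0.13, and the other 9 cytosolic members one of -0.03. After 24 h these medians were 0.46 and 0.11, and after 40 h they were 0.23 and -0.03. The 10 marker genes of that response, counted further below, went the other way before exit. Their median then was -0.27, with 1 called higher and 4 lower. It was 0.96 after 24 h (9 higher, 0 lower) and 0.30 after 40 h (7 higher, 0 lower). The cause of the opposite sign before exit was not tested.

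**Figure D5:**
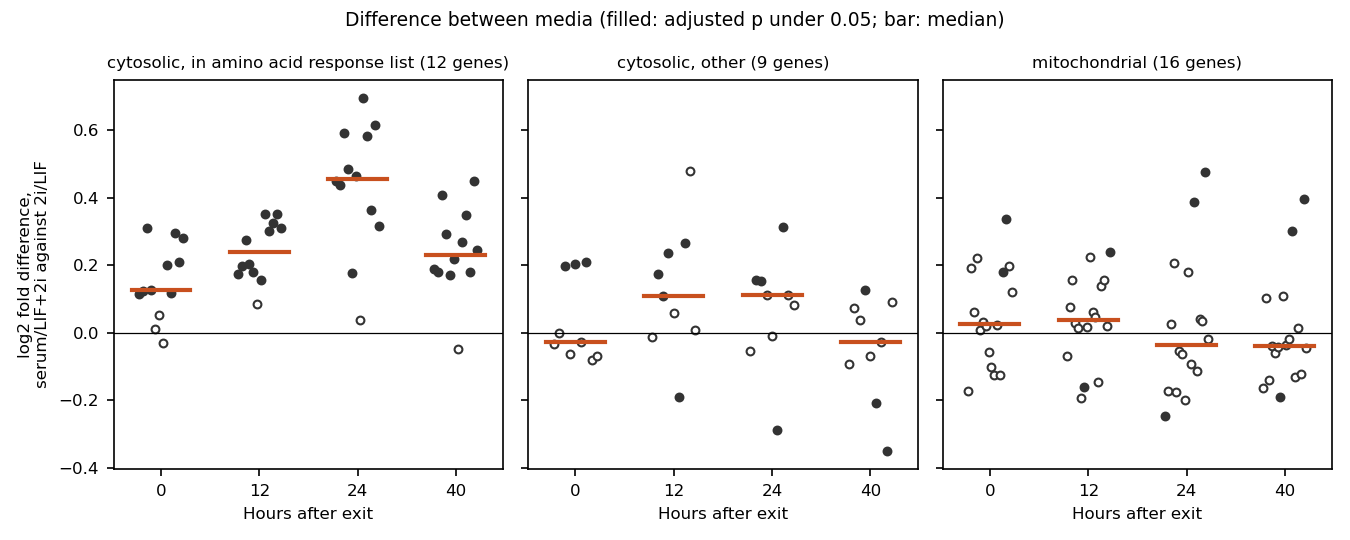
Log2 fold difference between cells from serum/LIF+2i and from 2i/LIF (y axis) at each time (x axis), for 12 cytosolic members in the amino acid response list, the other 9 cytosolic members and the 16 mitochondrial members. Points are genes, filled where called, and bars are medians. The bar of the first panel is highest at 24 h, at 0.46.

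The exit response itself also differed, as tested by the interaction of time and medium. At 24 h, 10 cytosolic members had a higher response from serum/LIF+2i and 2 a lower one, with 1 mitochondrial member higher and 0 lower, beside 9.77% and 11% of all genes. At an unadjusted p under 0.05, 2 mitochondrial members were lower, Cars2 and Vars2, and DESeq2 called 0 mitochondrial members. Without ribosomal RNA genes, 4 members in all were lower. Of the 12 in the amino acid response list 9 were higher and 0 lower by edgeR, adjusted or unadjusted, with a median of 0.32, and of the other 9 cytosolic members 1 was higher and 2 lower. Nars had the largest difference in response. Nars read 497 and 501 CPM before exit, 562 and 563 after 12 h, 547 and 573 after 24 h and 715 and 792 after 40 h in cells from 2i/LIF. The Nars values from serum/LIF+2i were 571 and 576 CPM before exit, 715 and 721 after 12 h, 888 and 927 after 24 h and 898 and 915 after 40 h. Its interaction at 24 h was 0.50 ± 0.05 (SE) (adjusted p = 7.64e-14), and Sars followed at 0.46 ± 0.06 (SE) (adjusted p = 3.29e-09). Kars and Qars were lower, at -0.22 and -0.26. Nars was chosen here after its values were seen.

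At 12 h, 4 cytosolic members had a higher response from serum/LIF+2i and 1 a lower one, beside 4.8% and 4.4% of all genes, and DESeq2 called 1. Other scalings split the calls 5 and 0 or 2 and 2, and leaving out any 1 library of the 0 h and 12 h groups, other than replicate 2 from 2i/LIF at 12 h, left 1 to 3 calls. At 40 h, 7 cytosolic members were higher and 4 lower, with 1 and 2 mitochondrial, beside 14.8% and 12.8%. Of these 14 calls, DESeq2 made 5. They numbered 6 and 7 without replicate 2 of the 0 h or replicate 1 of the 40 h group from 2i/LIF, and 8 without replicate 2 of the 0 h or replicate 1 of the 40 h group from serum/LIF+2i. Among called members, the largest differences at 40 h were in Vars2, Rars2, Kars and Wars. Vars2 differed by -0.46 ± 0.12 (SE) (adjusted p = 0.00173), a call lost when the second serum/LIF+2i library at 0 h was left out (-0.33, adjusted p = 0.0559). Kars read 408 and 418 CPM before exit, 487 and 458 after 12 h, 503 and 504 after 24 h and 542 and 519 after 40 h in cells from 2i/LIF. The Kars values from serum/LIF+2i were 472 and 480.4 CPM before exit, 493 and 490.4 after 12 h, 504 and 496 after 24 h and 502 and 509 after 40 h. Kars, the lysine enzyme, rose by 0.36 from 2i/LIF and 0.09 from serum/LIF+2i, and differed by -0.27 ± 0.05 (SE) (adjusted p = 1.11e-05). Its call at 40 h from serum/LIF+2i was lost without replicate 1 of the 0 h group (adjusted p = 0.153) or replicate 2 of the 40 h group (adjusted p = 0.126). Wars read 115 and 108 CPM before exit, 113 and 118 after 12 h, 126 and 126 after 24 h and 150.04 and 165 after 40 h in cells from 2i/LIF. The Wars values from serum/LIF+2i were 132 and 126 CPM before exit, 149 and 146 after 12 h, 191 and 194 after 24 h and 213 and 218 after 40 h. Wars, the cytosolic tryptophan enzyme, differed by 0.24 ± 0.07 (SE) (adjusted p = 0.00867), which DESeq2 placed at 0.051, and which was lost without replicate 1 of the 2i/LIF groups at 0 h (0.0746) or 40 h (0.119). Rars2 read 49.98 and 48.2 CPM before exit, 56.9 and 56.3 after 12 h, 52.2 and 53.9 after 24 h and 61.6 and 59.2 after 40 h in cells from 2i/LIF. The Rars2 values from serum/LIF+2i were 50.1 and 49.5 CPM before exit, 58.3 and 58.5 after 12 h, 71.01 and 67.8 after 24 h and 75.2 and 73.6 after 40 h. Rars2, the mitochondrial arginine enzyme, differed by 0.28 ± 0.11 (SE) (adjusted p = 0.0428), a call lost with any 0 h or 40 h library left out, at adjusted p of 0.0522 to 0.129, and by DESeq2 at 0.143. It overlaps Orc3 in its annotated span.

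The partners of Vars2, Rars2 and Tars in the other compartment read as follows. Vars read 321 and 337 CPM before exit, 383 and 382 after 12 h, 402 and 424 after 24 h and 438 and 427 after 40 h in cells from 2i/LIF. The Vars values from serum/LIF+2i were 315 and 312 CPM before exit, 370.5 and 397 after 12 h, 431 and 442 after 24 h and 476 and 445 after 40 h. Vars rose in both media while Vars2 fell from serum/LIF+2i. Rars read 215 and 219 CPM before exit, 229 and 219 after 12 h, 238 and 247 after 24 h and 235 and 256 after 40 h in cells from 2i/LIF. The Rars values from serum/LIF+2i were 259 and 244 CPM before exit, 271 and 268 after 12 h, 306 and 297 after 24 h and 228 and 254 after 40 h. Rars was highest at 24 h from serum/LIF+2i and fell back by 40 h, by 0.32 on the log2 scale. Tars2 read 79.1 and 79.6 CPM before exit, 80.2 and 80.2 after 12 h, 92.6 and 101 after 24 h and 104 and 89.8 after 40 h in cells from 2i/LIF. The Tars2 values from serum/LIF+2i were 87.9 and 91.9 CPM before exit, 91.9 and 85.1 after 12 h, 102 and 96.5 after 24 h and 99.3 and 97.1 after 40 h. Tars2 libraries from 2i/LIF at 40 h were spread from 89.8 to 104.5 CPM.

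Other genes of the pathway were counted in lists chosen with the family, to be read against the 34.1% of all genes that rose and 34.7% that fell from 2i/LIF, and 35.3% each way from serum/LIF+2i. Of 12 genes for tRNA handling and supply, 6 rose and 2 fell at 40 h from 2i/LIF, and 4 rose and 4 fell from serum/LIF+2i. Xpot, the nuclear export receptor for tRNA, rose by 0.42 and 0.93, Dtd1, which removes D-amino acids from tRNA, by 1.502 and 1.74, and Trnt1, which adds the CCA end to tRNA, by 0.78 and 0.97. The 4 that fell from serum/LIF+2i were the elongation factor genes Eef1a1, Eef1b2, Eef1d and Eef1g, at -0.08 to -0.15, named here after their values were seen. From 2i/LIF, Eef1a1 and Eef1g fell by 0.30 and 0.12, Eef1b2 was not called at -0.02, and Eef1d rose by 0.32. These small falls were not retested with library sizes unscaled, where the median of all genes from serum/LIF+2i was 0.075. Of 16 genes of mitochondrial translation, 5 rose and 3 fell from 2i/LIF and 4 rose and 5 fell from serum/LIF+2i, no more than the shares of all genes. Gfm2, a mitochondrial ribosome recycling factor, rose by 0.79 and 0.69, and Gtpbp3, a mitochondrial tRNA modifier, by 0.78 and 0.46. Trit1, another tRNA modifier, was not called from 2i/LIF at 0.13 and fell by 0.59 from serum/LIF+2i. Of 10 marker genes of the amino acid response, 8 rose and 2 fell from 2i/LIF and 8 rose and 1 fell from serum/LIF+2i. Chac1, which degrades glutathione, rose by 3.49 and 4.03, and Trib3, a pseudokinase, by 1.34 and 2.44. Asns, the asparagine synthetase of the same response, fell by 1.39 and 1.49, from 1268 to 484 CPM and from 1613 to 572 CPM.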

How the data were processed

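The authors deposited a table of whole-number counts per gene for 27179 genes, not normalized, with Entrez identifiers, symbols and gene lengths, per the file headers. RNA was extracted with TRIzol and libraries made with a stranded mRNA kit, per the labels' protocols. The submitters' processing notes name fastp, STAR, featureCounts and mm10; the annotation and the strand setting of the counting are not given in the sources used here. Genes that overlap another counted gene (9 of the 37 members, among them Aars, Farsb, Iars2, Mars, Rars2 and Wars) are therefore uncertain. Hars and Hars2 are also among the 9, but overlap each other only at the ends of their spans. Groups and replicate numbers came from the sample titles, which include 12 h samples from serum/LIF+2i although the protocol names later times only. All value columns were used.

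Genes were filtered with edgeR 4.0.16 filterByExpr (minimum count 10, minimum total 15) in R 4.3.3 and scaled by TMM, and 14288 were tested with glmQLFit (robust) and glmQLFTest, one term per group, with 8 residual degrees of freedom. The common biological coefficient of variation was 3.19%. The 17 comparisons were each later time against 0 h, successive times, medium against medium, and their interaction. They share libraries. The members, lists and tests were chosen with earlier results of these data known, and the compartments were described by counts and medians, with no test over the members. Values in every library are given for the 4 largest rises and 4 largest falls at 40 h, the 4 largest differences between media at 0 h, the 4 largest interactions at 40 h, and their partners in the other compartment. One item is counted in the totals but not reported here on its own. Alternatives were DESeq2 1.42.0, other scalings, no filter, a replicate block, no ribosomal RNA genes and leaving out each library. The test was also run on simulated data with far fewer changed genes than were called here, so that run does not bear on changes this wide. Depth limits the low members most; 3 counts equal 0.259 to 0.517 CPM, and no molecular identifiers were used.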

Additional observations from a re-analysis of the deposited data

Results flagged for a closer look

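The change since 0 h differed between cells from the 2 media for some synthetases, by edgeR's test of the difference itself. Values are the log2 change from serum/LIF+2i minus that from 2i/LIF. At 12 h they were 0.30 for Hars, 0.17 for Iars, 0.19 for Mars, -0.16 for Qars and 0.18 for Sars. At 24 h they were 0.33 for Aars, 0.31 for Cars, 0.28 for Eprs, 0.36 for Gars, 0.16 for Iars, -0.22 for Kars, 0.41 for Lars, 0.50 for Nars, -0.26 for Qars, 0.46 for Sars, 0.15 for Vars, 0.41 for Wars and 0.36 for Rars2. At 40 h they were -0.16 for Farsb, 0.16 for Gars, 0.19 for Hars, 0.16 for Iars, -0.27 for Kars and 0.16 for Lars. At that time they were also -0.18 for Qars, -0.24 for Rars, 0.23 for Sars, 0.16 for Vars and 0.24 for Wars. Among mitochondrial members at 40 h they were -0.21 for Iars2, 0.28 for Rars2 and -0.46 for Vars2. DESeq2 did not call Farsb, Gars, Hars, Lars, Qars, Vars, Wars, Iars2 or Rars2 at 40 h (adjusted p = 0.051 to 0.181).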

How the results depend on the processing

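No call of a member at 40 h in the exit from either medium, at 0 h between media or in the interaction at 40 h changed direction under any alternative. Counts of called members moved by over 1.5 times in 3 comparisons. The interaction at 12 h had 5 calls, 1 by DESeq2, 3 without ribosomal RNA genes, and 1 to 7 with 1 library left out. The interaction at 40 h had 14, 5 by DESeq2, and 6 to 14 with 1 library left out. The step from 24 to 40 h from serum/LIF+2i had 22, and 14 to 22 with 1 library left out. The difference of medians, mitochondrial minus cytosolic, was -0.49 to -0.41 from 2i/LIF and -0.73 to -0.53 from serum/LIF+2i with 1 library left out, and -0.45 and -0.61 with Tarsl2 counted as mitochondrial. The cause of these shifts was not tested. Replicate numbers did not pair the libraries, since same-numbered libraries' deviations correlated at -0.023 to 0.033 and 0 of 28 correlations passed 0.1. With a replicate block, 27 members were called at 40 h from 2i/LIF and 0 calls were lost in those 4 comparisons. Leaving library sizes unscaled moved the median of all genes by at most 0.08. With 2 libraries a group, depth limits calls for low members such as Wars2 and Tarsl2.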
